A study of Mus musculus with 27 samples.

Results

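Glutathione S-transferases are enzymes that join the tripeptide glutathione to reactive, electrophilic compounds. The 10 genes described here, Gsta2, Gsta3, Gsta4, Gstm1, Gstm2, Gstm3, Gstm4, Gstm6, Gstp1 and Gstt1, were taken as the rows whose Ensembl identifier carries one of these symbols in the GENCODE M21 annotation. They are 10 of 43346 genes in the deposited table, and all 10 passed the filter on low counts. RNA had been sequenced from hepatocytes, the main cell type of the liver, of female mice aged 12 weeks from 9 inbred strains, with 3 libraries per strain. Of these, NZO/HlLtJ, NOD/ShiLtJ, A/J, C57BL/6J, DBA/2J and 129S1/SvImJ are classical laboratory strains, and WSB/EiJ, CAST/EiJ and PWK/PhJ were derived from wild mice. The study also surveyed histone marks and DNA methylation, which are not analysed here. It asked how genetic differences between the strains relate to those marks and to expression.

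The cytosolic enzymes fall into classes by sequence, and the members cover the alpha (Gsta), mu (Gstm), pi (Gstp) and theta (Gstt) classes. A conjugate made by these enzymes leaves the hepatocyte through transporters and is trimmed by peptidases to a mercapturate, which is excreted. In liver, several of the genes are known targets of the transcription factor Nrf2, which answers oxidative and electrophilic stress, and of the nuclear receptors CAR and PXR, which answer foreign compounds.

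Library totals ran from 17015932 to 35078483 estimated counts. All 10 hepatocyte markers were present in every library, with summed levels of 107100 to 317900 CPM (counts scaled to a common library size after TMM normalization). Of markers of other liver cells, the 10 Kupffer cell (liver macrophage) genes summed to between 33.38 and 414.3 CPM and the 10 endothelial genes to between 65.19 and 825.6 CPM, all detected in every library. The 10 stellate cell genes summed to between 31.56 and 190.4 CPM. The 8 bile duct genes summed to at most 9.737 CPM, with Krt7 and Tspan8 at 0 in 16 of 27 libraries and Sox9 and Spp1 at 0 in none. PWK/PhJ replicate 1 had the highest Kupffer and endothelial sums of all libraries. The sample titles call the libraries of a strain biological replicates without saying whether each came from its own mouse, so p-values measure the spread between these libraries.

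All 10 members differed between strains in the edgeR quasi-likelihood test over the 9 strains (Benjamini-Hochberg adjusted p from 2.47e-14 for Gstt1 to 0.0192 for Gstm4). Of all 14482 genes tested, 74.2% were called in the same test, so a call alone sets no member apart. The strain range of a gene was the log2 ratio of its highest to its lowest strain mean CPM, with 0.5 added to each mean. Its median was 2.21 over the members, against 0.95 over all genes tested. The ratio of the highest to the lowest strain mean was 579 for Gstm3, 17.7 for Gstt1, 15.9 for Gstm2 and 12.9 for Gsta2. It lay between 1.73 (Gstm4) and 5.62 (Gstm6) for the other 6 members. Per kb of annotated transcript, and averaged over the strains, Gstm1 was the most abundant with 952 CPM per kb, followed by Gsta3 (454), Gstp1 (174) and Gstt1 (161). The other 6 members lay between 31.7 CPM per kb for Gstm3 and 47.8 CPM per kb for Gsta4. In bulk RNA of this kind, fewer cells that express a gene and less of its RNA per cell cannot be told apart.

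**Figure D1:**
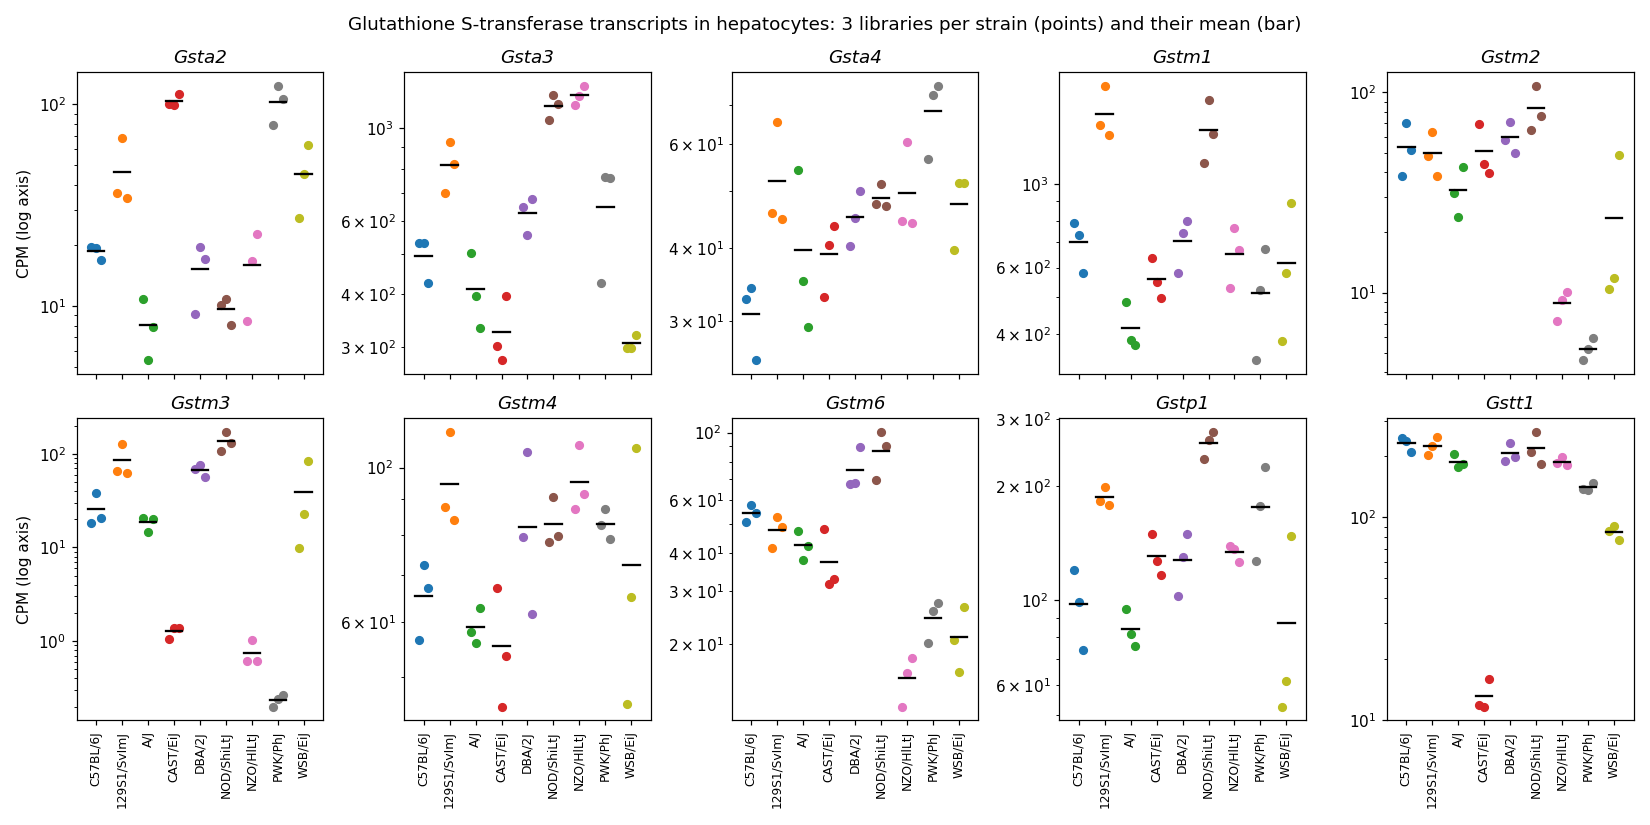
CPM (logarithmic axis) of the 10 glutathione S-transferase genes in each library (points, 3 per strain) with the strain mean (bar), for 9 strains along the horizontal axis. Gstm3 stands near or under 1 CPM in CAST/EiJ, NZO/HlLtJ and PWK/PhJ, and Gstt1 under 16 CPM in CAST/EiJ.

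Of the mu class genes, Gstm3 (ENSMUSG00000004038, chr3:107963696-107969283, minus strand, GRCm38) showed the widest range. Its level was low in 3 strains: 1.064, 1.389 and 1.392 CPM in the libraries of CAST/EiJ, 0.6116, 1.038 and 0.6094 CPM in NZO/HlLtJ, and 0.1997, 0.2405 and 0.2655 CPM in PWK/PhJ. The PWK/PhJ values rest on 5, 7 and 8 counts. In the other 6 strains no library was under 9.905 CPM, so the strains with low Gstm3 did not overlap with any of them. The highest strain was NOD/ShiLtJ, with 107.8, 171.2 and 129.9 CPM, followed by 129S1/SvImJ with 65.75, 126.9 and 62.07 CPM and DBA/2J with 68.28, 76.83 and 57 CPM. C57BL/6J had 18.15, 38.39 and 20.82 CPM and A/J had 20.64, 14.79 and 20.19 CPM. WSB/EiJ was the most scattered strain, with 9.905, 22.75 and 84.52 CPM, and its libraries spanned all those of A/J and DBA/2J without reaching those of NOD/ShiLtJ. In the order of strain means, the neighbours A/J and CAST/EiJ, CAST/EiJ and NZO/HlLtJ, and NZO/HlLtJ and PWK/PhJ did not overlap, while each pair of neighbours above A/J did. Over all genes tested, 8.03% of neighbouring strain pairs did not overlap, and over the 80 such pairs of the 10 members it was 16 pairs (20%).

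Against C57BL/6J, the fitted log2 change of Gstm3 was -6.74 ± 0.68 (SE) in PWK/PhJ, -5.08 ± 0.57 in NZO/HlLtJ and -4.34 ± 0.55 in CAST/EiJ (edgeR adjusted p 4.16e-08, 4.45e-07 and 1.21e-06). It rose by 2.40 ± 0.46 in NOD/ShiLtJ (adjusted p 0.000725) and by 1.72 ± 0.45 in 129S1/SvImJ (adjusted p 0.00997). The 129S1/SvImJ call was lost without C57BL/6J replicate 4 (log2 change 1.59, adjusted p 0.058) and without 129S1/SvImJ replicate 2 (1.31, adjusted p 0.0718). It was also lost with Kupffer and endothelial means as covariates (1.38, adjusted p 0.369). The change in DBA/2J was 1.39 ± 0.45 and did not pass the threshold (adjusted p 0.0562). The estimated counts of Gstm3 were not whole numbers in any of the 27 libraries, and 28.8% of the 50-base words of its transcript also occur in other loci, among them Gm8834, Gstm2-ps1 and Gstm1. Summed with those 3, the log2 changes were -0.50 in PWK/PhJ, -0.15 in NZO/HlLtJ and -0.37 in CAST/EiJ, and none passed (adjusted p 0.173, 0.691 and 0.276). In C57BL/6J that sum was 726.6 ± 109 CPM, of which Gstm1 alone held 700.8 ± 107 and Gstm3 25.79 ± 11 CPM (SD, n = 3), so the sum bears mostly on Gstm1. How reads were divided between the copies was not tested. The sources used here do not give the reference used for each strain's reads, so for all members less RNA in a strain and fewer of its reads assigned to the gene cannot be told apart, the wild-derived strains included.

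Gstm2 and Gstm6, which lie on either side of Gstm3 on the same strand, were also low in NZO/HlLtJ and PWK/PhJ. Gstm2 (ENSMUSG00000040562, chr3:107981702-107986453) had 4.592, 5.223 and 5.907 CPM in PWK/PhJ and 7.212, 9.238 and 10.1 CPM in NZO/HlLtJ. These 2 strains did not overlap with each other or with the rest. In CAST/EiJ, where Gstm3 was low, Gstm2 had 69.22, 43.95 and 39.7 CPM, within the span of C57BL/6J (38.21, 70.59 and 51.4 CPM). NOD/ShiLtJ had the highest mean, 83.12 ± 22.5 CPM (SD, n = 3). The log2 change of Gstm2 against C57BL/6J was -3.35 ± 0.43 in PWK/PhJ and -2.59 ± 0.41 in NZO/HlLtJ (edgeR adjusted p 2.32e-06 and 7.04e-05), and -0.07 ± 0.39 in CAST/EiJ (adjusted p 0.913). Of the transcript's 50-base words 9.4% were shared with other loci, among them Gm12499, Gm6665 and Gstm1, and 4 libraries held a count that was not whole. Summed with these 3, and so with the abundant Gstm1, the changes were -0.54 in PWK/PhJ and -0.19 in NZO/HlLtJ (adjusted p 0.131 and 0.606).

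In WSB/EiJ, Gstm2 had 10.45 CPM in replicate 2, 11.86 CPM in replicate 3 and 48.75 CPM in replicate 4. The last value lay within the span of C57BL/6J and the others below it. The log2 change was -1.18 ± 0.40 with an edgeR adjusted p of 0.049, the only one of the members' 36 called changes in which libraries overlapped. It did not pass with median-of-ratios scaling (adjusted p 0.0516), on the 6 libraries of the strains alone (0.212), or in 24 of the 27 fits that left out a library. Without WSB/EiJ replicate 4 it was -2.26 (adjusted p 1.53e-05), and without WSB/EiJ replicates 2 and 3 in turn it was -0.82 and -0.84 (adjusted p 0.211 and 0.225).

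Gstm6 (ENSMUSG00000068762, chr3:107938847-107943749) had 12.41, 16 and 17.99 CPM in NZO/HlLtJ, 20.65, 16.17 and 26.42 CPM in WSB/EiJ and 20.21, 25.63 and 27.38 CPM in PWK/PhJ. These 3 strains overlapped with each other, and all of their libraries were below every library of the other 6 strains. CAST/EiJ followed with 47.91, 31.59 and 32.79 CPM. At the top, NOD/ShiLtJ (69.72, 100.5 and 90.45 CPM) and DBA/2J (67.6, 67.94 and 89.33 CPM) overlapped with each other and stood above C57BL/6J (50.76, 57.49 and 54.14 CPM). The log2 change against C57BL/6J was -1.81 ± 0.20 in NZO/HlLtJ, -1.36 ± 0.20 in WSB/EiJ and -1.15 ± 0.20 in PWK/PhJ (edgeR adjusted p 3.38e-07, 1.8e-05 and 9.21e-05). Of the 50-base words of Gstm6, 11.5% occur in other genes, and its counts were not whole in 25 libraries. Summed with the genes that share these words, among them Gstm3, its change was -2.3 in NZO/HlLtJ and -1.7 in PWK/PhJ (adjusted p 1.72e-05 and 0.000325). In WSB/EiJ the summed change was -0.41 (adjusted p 0.447), while it was -1.04 in CAST/EiJ and 1.48 in NOD/ShiLtJ (adjusted p 0.0119 and 0.00217). Gstm3 holds 136.3 of the 223.2 CPM of that sum in NOD/ShiLtJ and 25.79 of 79.92 CPM in C57BL/6J, so the sum says little about Gstm6 itself. It fell by 0.53 ± 0.19 on the log2 scale in CAST/EiJ (adjusted p 0.0334), a call lost without C57BL/6J replicates 2 or 4 or CAST/EiJ replicates 4 or 5 (adjusted p up to 0.147). With library totals alone and no scaling factor it was -0.19 (adjusted p 0.53). In NOD/ShiLtJ Gstm6 rose by 0.68 ± 0.19 (adjusted p 0.0179), a call lost without C57BL/6J replicate 4 or NOD/ShiLtJ replicates 2 or 3 (adjusted p up to 0.0872). With Kupffer and endothelial means as covariates that change was 0.37 (adjusted p 0.313).

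The 5 mu class members and their neighbours Gstm7 and Gstm5 start within 149.07 kb of chromosome 3. Along that stretch the low values in NZO/HlLtJ and PWK/PhJ covered Gstm2, Gstm3 and Gstm6, while Gstm7, which starts 11.94 kb beyond Gstm6, was higher than in C57BL/6J in both strains. Gstm5, the last gene of the stretch, is on the other strand and, at under 10 CPM on average, is named for its place there, with its values known. It had 2.752, 2.328 and 1.411 CPM in NZO/HlLtJ against 4.341, 8.048 and 6.141 CPM in C57BL/6J, so it was low there too (log2 change -1.50 ± 0.24, edgeR adjusted p 7.97e-05), as it was in CAST/EiJ (-1.01 ± 0.24, adjusted p 0.00185). In PWK/PhJ it had 8.905, 11.72 and 6.671 CPM and did not pass (0.56 ± 0.23, adjusted p 0.0746). Gstm7, a mu class gene outside the 10, had 209.8 ± 20.9 CPM in NZO/HlLtJ and 120.6 ± 23.9 CPM in PWK/PhJ against 46.54 ± 1.9 CPM in C57BL/6J (SD, n = 3 each). Its log2 changes were 2.17 ± 0.17 and 1.37 ± 0.17 (edgeR adjusted p 1.11e-09 and 9.38e-07). The rise was not limited to these strains. Gstm7 also passed in CAST/EiJ (0.8 ± 0.17, adjusted p 0.000544) and in NOD/ShiLtJ (0.58 ± 0.17, adjusted p 0.0191). All estimated counts of Gstm7 were whole numbers, while those of Gstm5 were not whole in 24 libraries. On the other side, Gstm1 and Gstm4 did not pass the test in either strain: the log2 change of Gstm1 was -0.10 ± 0.26 in NZO/HlLtJ and -0.45 ± 0.26 in PWK/PhJ, and that of Gstm4 was 0.55 ± 0.22 and 0.34 ± 0.22 (adjusted p from 0.0652 to 0.792).

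**Figure D2:**
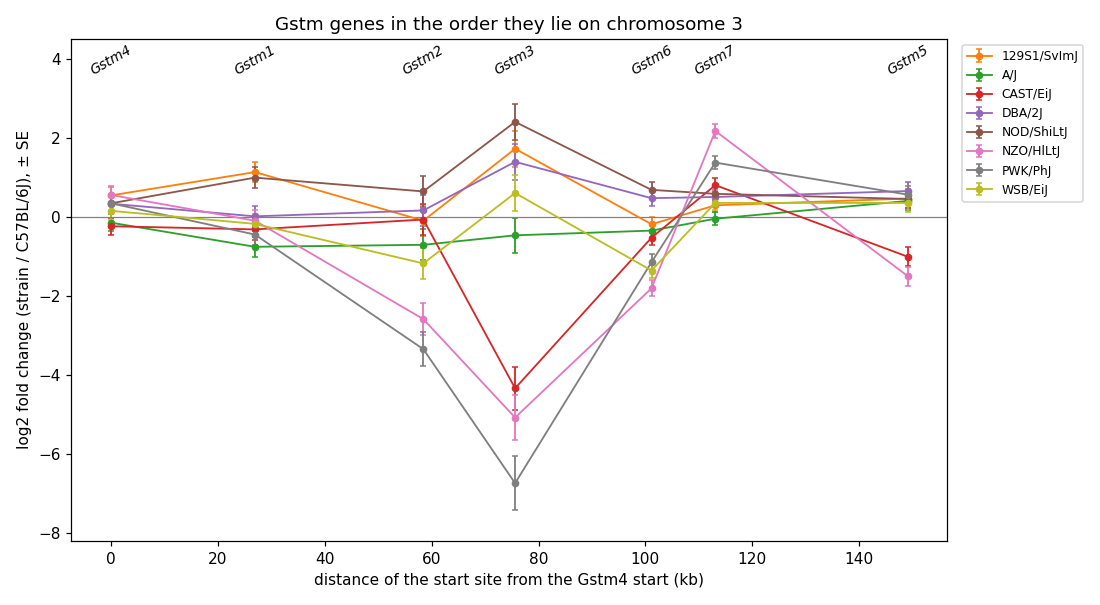
Fitted log2 fold change of each strain against C57BL/6J (points, ± SE; 3 libraries per strain) for the 7 Gstm genes, placed by the distance of their annotated start from that of Gstm4 in kb. Lines join genes of a strain and are only a guide. NZO/HlLtJ and PWK/PhJ dip at Gstm2, Gstm3 and Gstm6 and lie highest at Gstm7, where all strains but A/J are above 0. CAST/EiJ dips most at Gstm3, and at Gstm5 NZO/HlLtJ and CAST/EiJ are low while PWK/PhJ is not.

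The reference sequence before the start of these genes is shown because 3 neighbours were low together in NZO/HlLtJ and PWK/PhJ and the genes beside them were not. The sequences are RefSeq's for GRCm38.p6, which is the C57BL/6J genome, so they show no difference between strains. They are read 5′ to 3′ on the minus strand, within 250 bases before a RefSeq start, with bases annotated as exon left out. Capitals would mark matches to any of 4 motifs searched on both strands: TGACNNNGC (the antioxidant response element bound by Nrf2), TNGCGTG (the element of the aryl hydrocarbon receptor), GTTAAT (a core of the HNF1 site) and TTGCNNNAA (the C/EBP site). Of 32851 promoters of that length in the RefSeq table, 10.2%, 4.1%, 6.4% and 8.3% held these motifs. The first 3 sequences belong to the genes that were low, the last 2 to Gstm1 and Gstm4, and none of the 5 stretches held a match to these letters.
Gstm3, chr3:107969284-107969424: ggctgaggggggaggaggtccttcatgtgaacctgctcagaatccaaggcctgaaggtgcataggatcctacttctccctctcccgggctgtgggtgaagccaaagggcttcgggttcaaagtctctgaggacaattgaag
Gstm2, chr3:107986454-107986670: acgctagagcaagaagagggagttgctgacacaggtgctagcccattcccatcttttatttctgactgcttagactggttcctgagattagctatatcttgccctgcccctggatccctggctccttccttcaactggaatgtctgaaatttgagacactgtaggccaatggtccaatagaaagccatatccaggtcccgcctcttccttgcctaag
Gstm6, chr3:107943750-107943984: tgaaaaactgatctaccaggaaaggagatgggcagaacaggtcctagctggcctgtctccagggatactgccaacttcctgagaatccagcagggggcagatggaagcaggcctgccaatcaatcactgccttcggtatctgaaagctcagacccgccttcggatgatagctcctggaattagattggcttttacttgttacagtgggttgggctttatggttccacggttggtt
Gstm1, chr3:108017974-108018223: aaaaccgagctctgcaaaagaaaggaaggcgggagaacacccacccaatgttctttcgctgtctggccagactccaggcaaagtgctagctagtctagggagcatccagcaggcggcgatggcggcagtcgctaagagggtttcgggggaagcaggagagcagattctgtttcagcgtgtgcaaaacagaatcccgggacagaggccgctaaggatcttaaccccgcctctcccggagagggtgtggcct
Gstm4, chr3:108044895-108045109: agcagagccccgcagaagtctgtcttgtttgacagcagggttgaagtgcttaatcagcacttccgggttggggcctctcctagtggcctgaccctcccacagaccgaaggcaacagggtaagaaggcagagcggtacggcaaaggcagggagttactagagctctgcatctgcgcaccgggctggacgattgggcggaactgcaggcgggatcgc

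Gstm1 (ENSMUSG00000058135, chr3:108012255-108017973), the main mu class enzyme of mouse liver, was higher in 129S1/SvImJ and NOD/ShiLtJ than in the other 7 strains. The libraries held 1433, 1830 and 1354 CPM in 129S1/SvImJ and 1140, 1672 and 1360 CPM in NOD/ShiLtJ. No library of another strain exceeded 893.8 CPM, so these 2 strains overlapped with each other and with no other strain. C57BL/6J had 788.7, 732.6 and 581 CPM, and the lowest strain, A/J, had 485, 385.2 and 372.7 CPM. From DBA/2J (707.6 ± 113 CPM) down to A/J (414.3 ± 61.5 CPM, SD, n = 3 each) every strain overlapped with the next. The log2 change against C57BL/6J was 1.13 ± 0.26 in 129S1/SvImJ and 0.99 ± 0.26 in NOD/ShiLtJ (edgeR adjusted p 0.00358 and 0.0111). The NOD/ShiLtJ call was lost without C57BL/6J replicate 4 or NOD/ShiLtJ replicate 2 (adjusted p up to 0.0711). With Kupffer and endothelial means as covariates neither change passed, at 0.76 in 129S1/SvImJ and 0.77 in NOD/ShiLtJ (adjusted p 0.256 and 0.123). Of the 50-base words of Gstm1, 33% occur in other genes, and none of its library counts was whole. Summed with these genes the changes were 1.16 in 129S1/SvImJ and 1.07 in NOD/ShiLtJ (adjusted p 0.00368 and 0.00747).

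Gstm4 (ENSMUSG00000027890, chr3:108040408-108044894) varied least. NZO/HlLtJ had the highest mean, 95.45 ± 10.8 CPM, and CAST/EiJ the lowest, 55.31 ± 11 CPM (SD, n = 3 each), each strain overlapped with the next, and no strain passed the test against C57BL/6J. Its strain effect had an edgeR adjusted p of 0.0192. None of its 50-base words occurs in another gene and all its counts were whole numbers. WSB/EiJ spanned most of the range of the other strains, with 45.69, 65.06 and 106.8 CPM.

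Among the alpha class genes, Gsta2 (ENSMUSG00000057933, chr9:78331018-78355788, minus strand) was highest in CAST/EiJ and PWK/PhJ. CAST/EiJ libraries had 100.5, 98.89 and 112.6 CPM and PWK/PhJ libraries 78.82, 123.9 and 106.9 CPM. Below them came 129S1/SvImJ with 36.35, 67.99 and 34.46 CPM and WSB/EiJ with 27.27, 45.21 and 62.61 CPM. C57BL/6J had 19.58, 19.46 and 16.95 CPM. The 9 strains thus formed 3 steps that did not overlap: CAST/EiJ and PWK/PhJ, then 129S1/SvImJ and WSB/EiJ, then the other 5, of which A/J was lowest with 10.87, 5.381 and 7.901 CPM. NOD/ShiLtJ had 10.16, 10.81 and 8.083 CPM, while NZO/HlLtJ (8.461, 16.68 and 22.77 CPM) and DBA/2J (9.079, 19.58 and 17.06 CPM) spread from the A/J values to those of C57BL/6J.

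Gsta2 rose by 2.48 ± 0.35 on the log2 scale in CAST/EiJ and by 2.47 ± 0.35 in PWK/PhJ against C57BL/6J (edgeR adjusted p 5.31e-06 and 8.07e-06). It rose by 1.31 ± 0.34 in 129S1/SvImJ and by 1.27 ± 0.34 in WSB/EiJ (adjusted p 0.00854 and 0.0115). These 2 calls were lost without 129S1/SvImJ replicate 2 (adjusted p 0.0803) and without C57BL/6J replicate 4 or WSB/EiJ replicate 4 (adjusted p up to 0.0979). With Kupffer and endothelial means as covariates the 129S1/SvImJ change was 0.7 and the WSB/EiJ change 0.87 (adjusted p 0.497 and 0.138). In A/J it fell by 1.21 ± 0.35 on the log2 scale (adjusted p 0.0296), a call lost without C57BL/6J replicates 1 or 2 or A/J replicates 2 or 3 (adjusted p up to 0.143). Gsta2 shares 64.2% of its 50-base words with other genes, its coding sequence is 97.6% identical to that of Gsta1, and none of its library counts was whole, so reads that the copies share make its level uncertain. With Gsta1, Gm10639 and Gm3776 added, CAST/EiJ had 116.5 ± 9.63 CPM, PWK/PhJ 106.1 ± 23.4 CPM, WSB/EiJ 79.36 ± 50.7 CPM and C57BL/6J 20.91 ± 1.82 CPM (SD, n = 3 each). In the sum, the WSB/EiJ change was 1.92 (adjusted p 0.000989) and the A/J change -1.22 (adjusted p 0.0588).

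Gsta3 (ENSMUSG00000025934, chr1:21240589-21265661, plus strand), whose enzyme conjugates the epoxide of aflatoxin in mouse liver, had another order of strains. NZO/HlLtJ had 1136, 1197 and 1265 CPM and NOD/ShiLtJ 1044, 1198 and 1141 CPM, and no other library exceeded 927.5 CPM. At the other end lay WSB/EiJ, with 297.3, 298.4 and 320.6 CPM, and CAST/EiJ, with 300.5, 278.3 and 396.4 CPM. C57BL/6J was between them with 530.8, 530.4 and 426.1 CPM. Neighbours in the order overlapped except NOD/ShiLtJ with 129S1/SvImJ (698.4, 927.5 and 820.5 CPM), and DBA/2J (649.1, 554 and 678.8 CPM) with C57BL/6J. PWK/PhJ had 425.1 CPM in replicate 1 and 763 and 759 CPM in replicates 2 and 3.

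The log2 change of Gsta3 against C57BL/6J was 1.27 ± 0.20 in NZO/HlLtJ and 1.19 ± 0.20 in NOD/ShiLtJ (edgeR adjusted p 5.14e-05 and 0.000147), and 0.72 ± 0.20 in 129S1/SvImJ (adjusted p 0.0126). It fell by 0.70 ± 0.20 in WSB/EiJ and by 0.61 ± 0.20 in CAST/EiJ on the log2 scale (adjusted p 0.017 in each). The 129S1/SvImJ call was lost without C57BL/6J replicate 4 or 129S1/SvImJ replicate 2 (adjusted p up to 0.0804). It was also lost with Kupffer and endothelial means as covariates (0.37, adjusted p 0.517). The WSB/EiJ call was lost without C57BL/6J replicates 1 or 2 or WSB/EiJ replicates 2 or 3 (up to 0.0674), and the CAST/EiJ call without C57BL/6J replicate 2 or CAST/EiJ replicates 1 or 4 (up to 0.0862). With library totals alone and no scaling factor, the CAST/EiJ change was -0.28 (adjusted p 0.36). Gsta3 shares no 50-base word with another gene and all its counts were whole numbers. It overlaps an antisense gene, Gm28836, and the library kit is not stated to keep strand, so reads of the pair cannot be told apart.

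The promoter of Gsta3 is shown because it was the only one of the members' promoters found to hold the Nrf2 letters. Capitals mark TGACATTGC, 121 to 113 bases before the RefSeq start, and ATTAAC, 149 to 144 bases before it, which is the HNF1 core on the other strand; they do not overlap. RefSeq promoters were matched for 9 of 10 members, all except Gsta4. Gsta2 held TAGCGTG, a match to the aryl hydrocarbon receptor letters, 9 to 3 bases before its RefSeq start. That lies outside its longest stretch free of annotated exon, which ended 24 bases before the start. Of the genes outside the 10, Gstm7 and Gstm5 held the Nrf2 letters. In Gstm7 they lay 129 to 121 bases before a RefSeq start, where the stretch free of annotated exon ended at 204. Its other RefSeq promoter did not hold them. A match is a description of letters in the C57BL/6J reference and not a measured site.
Gsta3, chr1:21240335-21240584, plus strand: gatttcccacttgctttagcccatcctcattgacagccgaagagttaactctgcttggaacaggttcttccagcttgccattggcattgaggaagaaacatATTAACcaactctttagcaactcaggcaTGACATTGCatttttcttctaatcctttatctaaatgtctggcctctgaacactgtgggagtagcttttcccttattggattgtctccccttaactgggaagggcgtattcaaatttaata

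Gsta4 (ENSMUSG00000032348, chr9:78182774-78209349, plus strand), whose enzyme conjugates hydroxynonenal and other products of lipid peroxidation, was lowest in C57BL/6J. Its libraries had 32.74, 34.21 and 25.74 CPM there and 56.54, 72.64 and 75.43 CPM in PWK/PhJ, the highest strain. Each strain overlapped with the next in the order, and PWK/PhJ did not overlap with C57BL/6J. Against C57BL/6J the gene rose by 1.14 ± 0.20 on the log2 scale in PWK/PhJ (edgeR adjusted p 0.000141), and by 0.62 ± 0.20 to 0.75 ± 0.20 in WSB/EiJ, NOD/ShiLtJ, NZO/HlLtJ and 129S1/SvImJ (adjusted p 0.0404, 0.0291, 0.0141 and 0.0109). Each of these 4 smaller changes lost its call without C57BL/6J replicate 4, the lowest library, and without 1 or more of its own strain's libraries (adjusted p up to 0.172, 0.155, 0.0934 and 0.0872 in the same order). The libraries that did so were 129S1/SvImJ replicate 2, NZO/HlLtJ replicate 2, each NOD/ShiLtJ library and WSB/EiJ replicates 3 and 4, and in WSB/EiJ also C57BL/6J replicates 1 and 2. With Kupffer and endothelial means as covariates these 4 changes did not pass either, at 0.51, 0.58, 0.46 and 0.59 (adjusted p 0.151, 0.153, 0.336 and 0.28). The WSB/EiJ change was also lost with library totals alone (0.44, adjusted p 0.277) and on the 6 libraries of the strains alone (0.61, adjusted p 0.0521). Gsta4 shares no 50-base word with another gene.

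Gstp1 (ENSMUSG00000060803, chr19:4035407-4037985, minus strand), the main pi class enzyme, was highest in NOD/ShiLtJ, with 235.8, 263.5 and 277.3 CPM. No library of another strain exceeded 223.9 CPM, so NOD/ShiLtJ stood apart. 129S1/SvImJ followed with 182.5, 199.3 and 178.2 CPM, and PWK/PhJ with 126.7, 177.4 and 223.9 CPM. C57BL/6J had 119.9, 98.96 and 73.99 CPM and A/J 95.14, 81.75 and 75.77 CPM. WSB/EiJ was again scattered, with 52.56, 61.43 and 147.8 CPM, and from 129S1/SvImJ down each strain overlapped with the next. The log2 change against C57BL/6J was 1.41 ± 0.27 in NOD/ShiLtJ, 0.94 ± 0.27 in 129S1/SvImJ and 0.85 ± 0.27 in PWK/PhJ (edgeR adjusted p 0.000721, 0.0169 and 0.0212). The 129S1/SvImJ call was lost without C57BL/6J replicates 2 or 4 or 129S1/SvImJ replicate 2 (adjusted p up to 0.108), and the PWK/PhJ call without C57BL/6J replicates 2 or 4 or PWK/PhJ replicates 2 or 3 (up to 0.124). With Kupffer and endothelial means as covariates the 129S1/SvImJ change was 0.57 (adjusted p 0.44). On the 6 libraries of PWK/PhJ and C57BL/6J alone the PWK/PhJ change was 0.85 with an adjusted p of 0.0533.

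Gstp1 shares 62.3% of its 50-base words with Gstp2 or the pseudogene Gstp-ps, its coding sequence is 98.1% identical to that of Gstp2, and none of its library counts was whole. The copies had counts above 0 in most strains, at levels that differed widely. They are named as copies of Gstp1, with their values known. Gstp2 had 16.71 ± 2.56 CPM in CAST/EiJ and 4.875 ± 1.21 CPM in PWK/PhJ against at most 1.525 ± 0.48 CPM in any other strain (SD, n = 3 each). Gstp-ps had 34.06 ± 20.9 CPM in WSB/EiJ and at most 0.3834 ± 0.153 CPM elsewhere (SD, n = 3 each). Gstp1 with both copies had 121.7 ± 73.6 CPM in WSB/EiJ and 98.18 ± 23.3 CPM in C57BL/6J, where Gstp1 alone had 87.27 ± 52.6 and 97.61 ± 23 CPM (SD, n = 3 each). The changes in NOD/ShiLtJ, 129S1/SvImJ and PWK/PhJ were 1.40, 0.94 and 0.88 in the sum (adjusted p 0.000745, 0.0166 and 0.0173).

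Gstt1 (ENSMUSG00000001663, chr10:75783813-75798584, minus strand), a theta class enzyme that acts on small halogenated compounds, had the smallest adjusted p of the members. In CAST/EiJ its libraries had 11.79, 11.63 and 15.93 CPM, from 309 to 399 counts each. WSB/EiJ had 85.64, 91.03 and 77.2 CPM and PWK/PhJ 137.9, 136.9 and 148.4 CPM. These 3 strains, the ones derived from wild mice, did not overlap with each other or with the classical strains, in which no library was under 176.9 CPM. The classical strains ran from 188.3 ± 14.7 CPM in A/J to 232.6 ± 18.7 CPM in C57BL/6J (SD, n = 3 each), and each overlapped with the next. The C57BL/6J libraries had 247, 239.5 and 211.5 CPM. For these wild-derived strains, too, RNA level and read assignment cannot be told apart.

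The log2 change of Gstt1 against C57BL/6J was -4.15 ± 0.17 in CAST/EiJ, -1.46 ± 0.15 in WSB/EiJ and -0.72 ± 0.15 in PWK/PhJ (edgeR adjusted p 1.71e-15, 6.83e-08 and 0.000582). It lay between -0.31 ± 0.14 and -0.04 ± 0.14 in the other 5 strains, where it did not pass (adjusted p from 0.115 to 0.858). The 3 calls held in each fit that left out a library (adjusted p at most 0.00443). None of its 50-base words occurs in another gene, and all its counts were whole numbers. Its promoter is shown as that of the member with the smallest adjusted p. Capitals mark TTGTAGCAA, a match to the C/EBP letters on the other strand, 58 to 50 bases before the RefSeq start.
Gstt1, chr10:75797732-75797981, minus strand: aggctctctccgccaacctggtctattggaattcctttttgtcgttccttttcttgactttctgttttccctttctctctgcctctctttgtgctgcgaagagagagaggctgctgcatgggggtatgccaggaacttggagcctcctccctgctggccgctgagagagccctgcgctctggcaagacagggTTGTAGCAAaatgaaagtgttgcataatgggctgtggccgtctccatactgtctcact

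The counts were also summed over the named genes of each class, so that reads passing between those genes stayed in the sum. Pseudogenes and predicted genes that share sequence with members (Gstp-ps, Gstm2-ps1, Gm8834, Gm10639 and Gm3776) were not included. All 4 sums differed between strains (edgeR adjusted p 1.81e-07 for Gsta, 9.81e-06 for Gstm, 7.68e-06 for Gstp and 0.00107 for Gstt), with 74.2% of all genes called in that fit. The ratio of the highest to the lowest strain mean was 2.95 for Gsta, 3.04 for Gstm, 3.28 for Gstp and 2.03 for Gstt. The ratios of Gsta, Gstm and Gstt were smaller than those of Gsta2, Gstm3 and Gstt1, and larger for Gsta and Gstm than those of Gsta4 and Gstm4. The ratio of Gstp was slightly above that of Gstp1 alone. The Gsta sum was highest in NZO/HlLtJ (1269 ± 72.6 CPM) and lowest in WSB/EiJ (429.6 ± 65.7 CPM), and the Gstm sum was highest in 129S1/SvImJ (1882 ± 324 CPM) and lowest in A/J (619.7 ± 70.3 CPM). The Gstp sum was highest in CAST/EiJ (301.5 ± 31.9 CPM) and lowest in A/J (91.88 ± 9.76 CPM), and the Gstt sum was highest in 129S1/SvImJ (429 ± 44.5 CPM) and lowest in CAST/EiJ (210.8 ± 57.6 CPM; SD, n = 3 for each sum).

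In the Gstp and Gstt sums, the gene that carried most counts was not the same in every strain, while in the Gsta and Gstm sums it was. Gstt1 made up 64.1% ± 1.87 of the Gstt counts in C57BL/6J and 6.34% ± 0.807 in CAST/EiJ, where Gstt3, another theta class gene, made up 78.4% ± 3.99 (SD, n = 3 each). Gstt3 also led in WSB/EiJ, with 62.6% ± 4.89 against 27.7% ± 6.37 for Gstt1, and the shares were alike in PWK/PhJ, 39.8% ± 9.31 and 39.7% ± 6.24 (SD, n = 3 each). In CAST/EiJ, Gstt3 had 166.6 ± 53.9 CPM against 94.78 ± 15.7 CPM in C57BL/6J (SD, n = 3 each; log2 change 0.81 ± 0.27, edgeR adjusted p 0.0199), and no count of Gstt3 was whole. Gstp3, another pi class gene, made up 51% ± 2.12 of the Gstp counts in CAST/EiJ and 0.144% ± 0.0128 in PWK/PhJ, against 5.7% ± 1.1 in C57BL/6J (SD, n = 3 each). Gsta2 made up 22% ± 1.71 of the Gsta counts in CAST/EiJ, 12.8% ± 1.35 in PWK/PhJ and 10.2% ± 2.66 in WSB/EiJ, and 0.817% ± 0.127 to 4.95% ± 1.31 elsewhere (SD, n = 3 each). Gsta3 held between 67.9% ± 2.62 and 94.9% ± 0.381 of the Gsta counts in every strain, and Gstm1 between 66% ± 2.76 and 81.8% ± 0.747 of the Gstm counts (SD, n = 3 each). Gstm3 held 7.29% ± 0.351 of the Gstm counts in NOD/ShiLtJ and 0.0318% ± 0.00403 in PWK/PhJ, and Gstm7 held 3.78% ± 0.456 and 16.1% ± 1.3 (SD, n = 3 each).

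**Figure D3:**
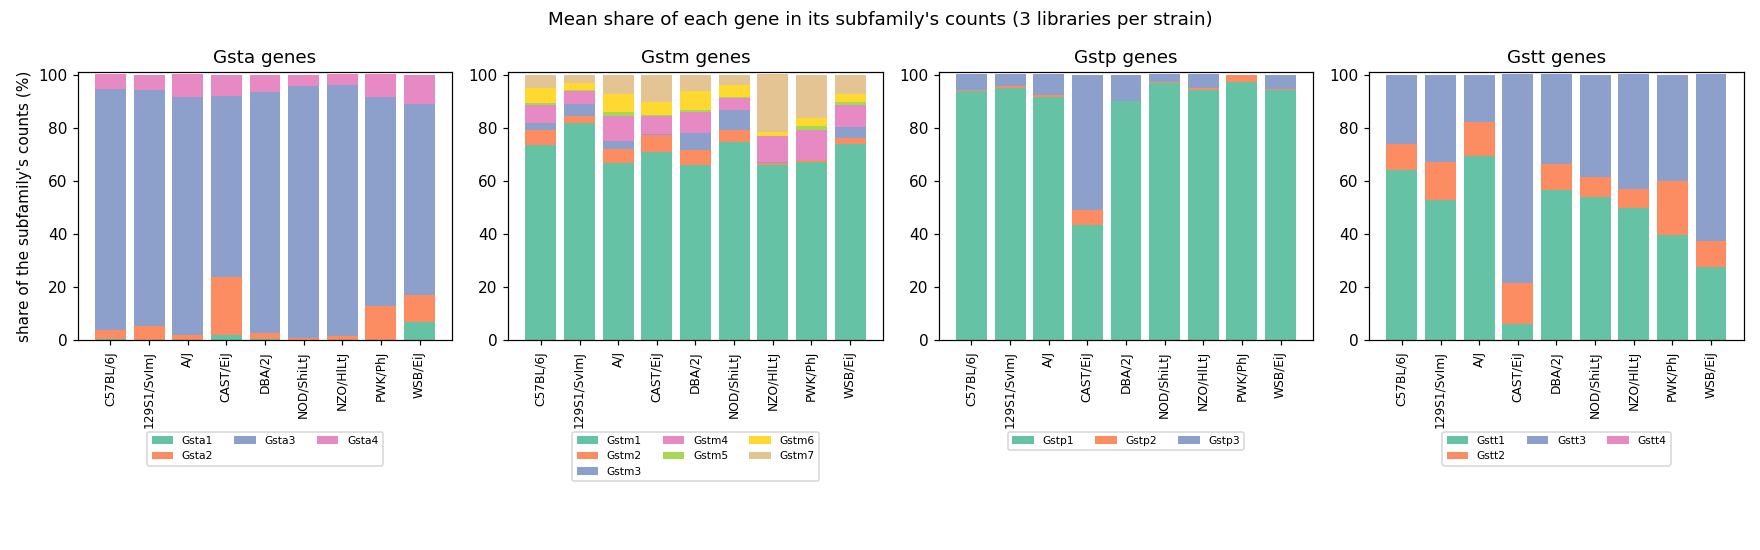
Mean share (%) of each gene in the summed counts of its class (3 libraries per strain), by strain, for the Gsta, Gstm, Gstp and Gstt genes; pseudogenes are not included. Gsta3 and Gstm1 hold most counts of their class in every strain, while Gstp3 takes over 50% in CAST/EiJ, and Gstt3 does so in CAST/EiJ and WSB/EiJ.

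By strain, 129S1/SvImJ and NOD/ShiLtJ had the most members above C57BL/6J. The 8 comparisons share the C57BL/6J libraries, so they are set side by side only. In 129S1/SvImJ 6 of 10 members were higher and 0 lower, against 9.2% of all genes higher and 11.7% lower. The 6 were Gsta2, Gsta3, Gsta4, Gstm1, Gstm3 and Gstp1, and their log2 changes lay between 0.72 and 1.72. In NOD/ShiLtJ 6 were higher and 0 lower, against 7.39% and 8.51% of all genes, and these were Gsta3, Gsta4, Gstm1, Gstm3, Gstm6 and Gstp1. At an unadjusted p under 0.05 edgeR had 0 members lower in 129S1/SvImJ and 1 (Gsta2) in NOD/ShiLtJ, and DESeq2 called the same numbers. The 10 members together summed to 3443 ± 463 CPM in NOD/ShiLtJ and 3142 ± 459 CPM in 129S1/SvImJ, against 1775 ± 213 CPM in C57BL/6J (SD, n = 3 each).

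The 129S1/SvImJ calls moved with other measures. Kupffer genes summed to between 40.66 and 85.74 CPM in its libraries and to between 197.8 and 263.9 CPM in C57BL/6J. Endothelial genes summed to between 98.13 and 188.4 CPM there and to between 182.4 and 314.3 CPM in C57BL/6J. With the Kupffer and endothelial means as covariates, the count in 129S1/SvImJ was 0 of 10, and the 6 log2 changes were all still positive, between 0.37 (Gsta3) and 1.38 (Gstm3), with adjusted p from 0.256 to 0.517. In NOD/ShiLtJ, Gsta3, Gstm3 and Gstp1 still passed with these covariates, and Gsta4, Gstm1 and Gstm6 did not (adjusted p 0.153, 0.123 and 0.313). Without 129S1/SvImJ replicate 2 the 129S1/SvImJ count was 1, and without C57BL/6J replicate 4 it was 2. Without NOD/ShiLtJ replicate 2 or C57BL/6J replicate 4 the NOD/ShiLtJ count was 3. NOD/ShiLtJ had Kupffer sums of 69.51 to 80.01 CPM. The 10 genes of hepatocytes near the central vein summed to between 8657 and 9371 CPM in 129S1/SvImJ and 8296 and 9685 CPM in NOD/ShiLtJ. In C57BL/6J they summed to between 10490 and 12080 CPM. How much of the changes lies with the share of other cells, or with the differences in these genes, was not tested.

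In PWK/PhJ 3 members were higher (Gsta2, Gsta4 and Gstp1) and 4 lower (Gstm2, Gstm3, Gstm6 and Gstt1), against 12.5% and 13.7% of all genes. In NZO/HlLtJ 2 were higher (Gsta3 and Gsta4) and 3 lower (Gstm2, Gstm3 and Gstm6), against 13.2% and 16.2%. In CAST/EiJ 1 was higher (Gsta2) and 4 were lower (Gsta3, Gstm3, Gstm6 and Gstt1), against 18.4% and 19.7%. In WSB/EiJ 2 were higher (Gsta2 and Gsta4) and 4 lower (Gsta3, Gstm2, Gstm6 and Gstt1), against 6.88% and 6.76%. Mean Kupffer sums were 65.76 CPM in NZO/HlLtJ, 62.55 CPM in CAST/EiJ, 103.3 CPM in WSB/EiJ and 232.8 CPM in PWK/PhJ, against 236.2 CPM in C57BL/6J. Mean endothelial sums were 84.98, 144, 169.7 and 455.2 CPM in the same order, against 237.8 CPM. The 10 genes of hepatocytes near the central vein summed to between 5711 and 7866 CPM in the libraries of these 4 strains and to between 10490 and 12080 CPM in C57BL/6J, with no overlap. Mean stellate sums were 154.2 CPM in PWK/PhJ and 72.25 CPM in C57BL/6J. The part of these differences in the members' changes was not tested. With the Kupffer and endothelial means as covariates, Gsta4 in NZO/HlLtJ and Gsta2 and Gsta4 in WSB/EiJ did not pass, and all called changes of CAST/EiJ and PWK/PhJ did. The CAST/EiJ count fell from 5 to 3 without C57BL/6J replicate 2 or CAST/EiJ replicate 4, and the WSB/EiJ count from 6 to 3 without C57BL/6J replicates 2 or 4 or WSB/EiJ replicate 3.

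A/J and DBA/2J had the fewest members called. In A/J only Gsta2 was called, lower, and 0 members were higher, against 4.03% of all genes lower and 3.81% higher. At an unadjusted p under 0.05, edgeR had 3 members lower in A/J (Gsta2, Gstm1 and Gstt1) and 0 higher, and DESeq2 called 2 lower (Gsta2 and Gstm1) and 0 higher. In DBA/2J edgeR called 0 members, against 4.9% of all genes higher and 4.16% lower. At an unadjusted p under 0.05, Gsta4, Gstm3 and Gstm6 were higher in DBA/2J, with log2 changes of 0.54 ± 0.20, 1.39 ± 0.45 and 0.47 ± 0.19 and adjusted p of 0.0992, 0.0562 and 0.147, and DESeq2 called 0. The A/J count was 0 without C57BL/6J replicates 1 or 2 or A/J replicates 2 or 3, and 2 without PWK/PhJ replicate 1 or WSB/EiJ replicates 2 or 4. The DBA/2J count was 1 without C57BL/6J replicate 2 or any WSB/EiJ library in turn.

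**Figure D4:**
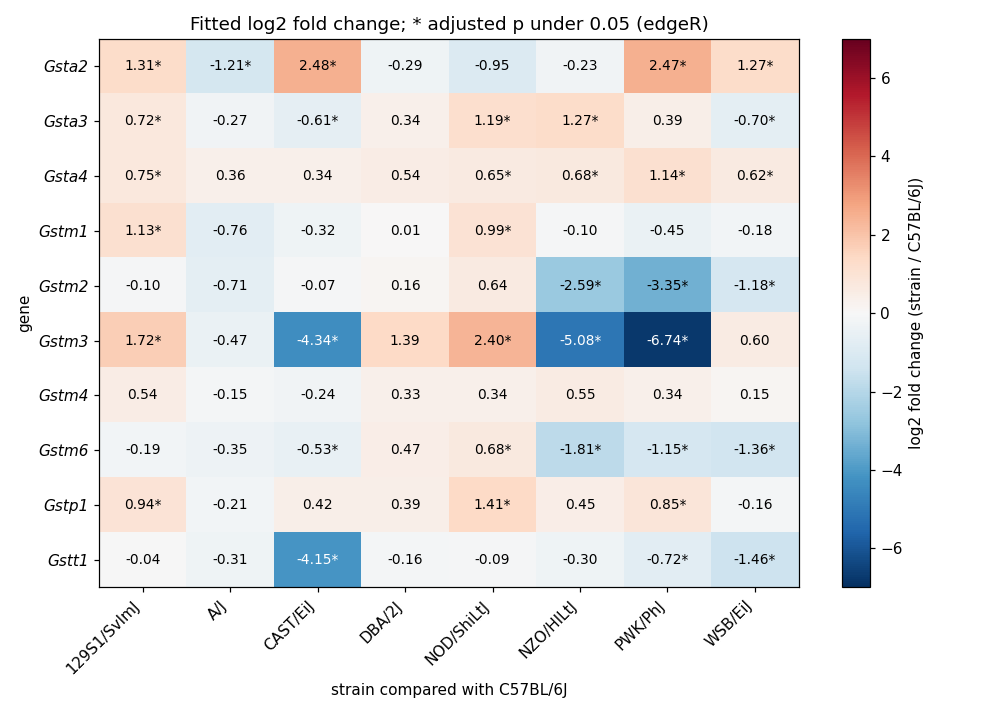
Fitted log2 fold change of each of the 10 genes (rows) in 8 strains against C57BL/6J (columns; colour and number; 3 libraries per strain), with an asterisk where the edgeR adjusted p was under 0.05. The asterisks mark 20 increases and 16 decreases among 80 comparisons; 129S1/SvImJ and NOD/ShiLtJ hold only increases.

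The members varied together among the libraries of some strains. In WSB/EiJ, replicate 4 had the highest value of the strain for 8 of 10 members and replicate 2 the lowest for 8, with median deviations from the strain mean of 0.59 and -0.57 on the log2 CPM scale. Over all genes tested, these libraries were highest for 34.8% and lowest for 32.4%. In 129S1/SvImJ and in NOD/ShiLtJ, replicate 2 was highest for 9 of 10 members, against 29.6% and 32.4% of all genes. A/J replicate 1 was highest for 8 members, against 37.3%. In PWK/PhJ, replicate 1 was lowest for 8 members, against 39.3% of all genes. That library had Kupffer and endothelial sums of 414.3 and 825.6 CPM, where the other 2 libraries of the strain had 141.7 to 142.4 and 250.4 to 289.6 CPM, and the part of these cells in the low values was not tested. In WSB/EiJ the sums were 102.1, 135.8 and 71.91 CPM for Kupffer genes and 168.8, 193.4 and 147 CPM for endothelial genes in replicates 2, 3 and 4, and Gstt1 departed from the pattern, being lowest in replicate 4.

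**Figure D5:**
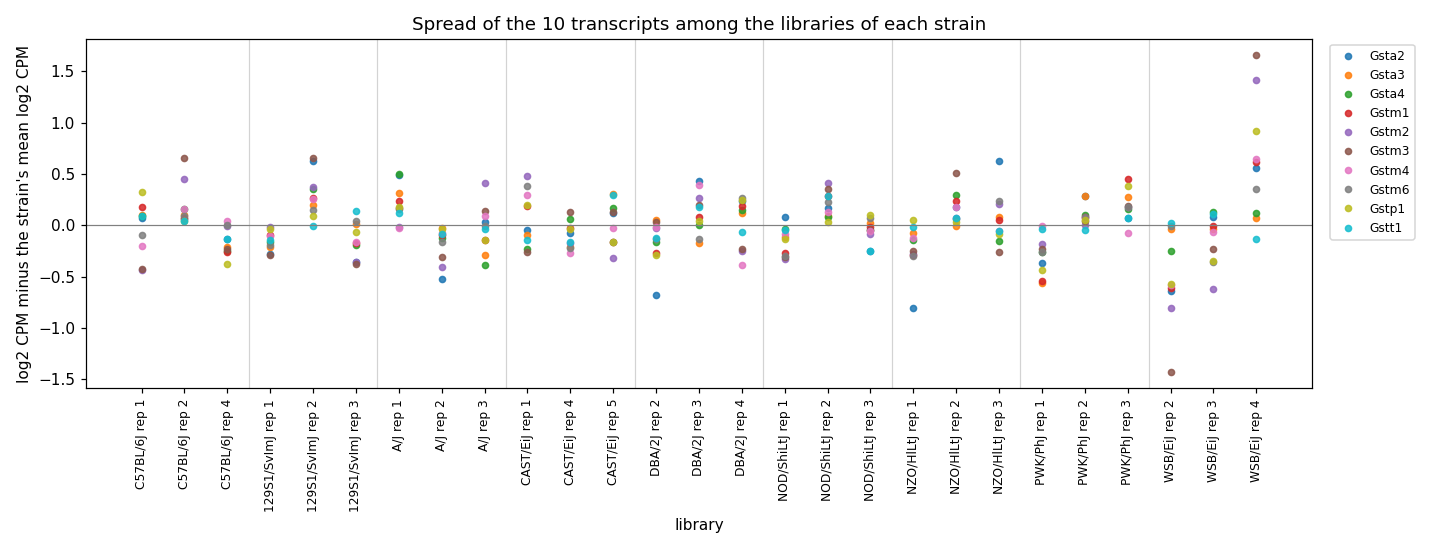
Deviation of each of the 10 genes from its strain's mean log2 CPM (points) in each of the 27 libraries, grouped by strain. In WSB/EiJ replicate 4 most points lie above 0 and in replicate 2 most lie below, with Gstm3 farthest out in both.

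Of 18 other glutathione transferase genes and relatives listed for comparison, 17 were in the table and 16 passed the filter on low counts. All 16 were called in the strain effect, where 74.2% of all genes tested were called. The widest was Gstp3 (ENSMUSG00000058216), with 153.7 ± 15.8 CPM in CAST/EiJ and 0.2577 ± 0.0517 CPM in PWK/PhJ (SD, n = 3 each; edgeR adjusted p 1.19e-17), a ratio of 596 that rests on at most 9 counts per PWK/PhJ library. Its counts were all whole numbers, and against C57BL/6J it rose by 4.74 ± 0.25 and fell by 4.45 ± 0.33 on the log2 scale in these strains (adjusted p 3.49e-13 and 2.14e-10). Mgst3, a microsomal glutathione transferase, ran from 9.389 ± 0.442 CPM in NZO/HlLtJ to 31.61 ± 7.33 CPM in PWK/PhJ (SD, n = 3 each; adjusted p 4.65e-07). Gstt3 ran from 48.78 ± 13.8 CPM in A/J to 198.8 ± 50.2 CPM in WSB/EiJ (SD, n = 3 each; adjusted p 8.98e-05).

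Genes that supply glutathione were called for 12 of 13 tested, against 74.2% of all genes in the same test. Their median strain range was 1.22 against 0.95 over all genes. Cth, which makes cysteine from cystathionine, ran from 203.6 ± 44.4 CPM in A/J to 1009 ± 263 CPM in CAST/EiJ (SD, n = 3 each; edgeR adjusted p 3.07e-08). Gclm, the modifier subunit of the enzyme that begins glutathione synthesis, ran from 68.33 ± 14.8 CPM in DBA/2J to 180.6 ± 30.2 CPM in 129S1/SvImJ (adjusted p 0.000207). Gnmt, which uses S-adenosylmethionine to methylate glycine, ran from 307.7 ± 30.6 CPM in A/J to 1418 ± 393 CPM in WSB/EiJ (adjusted p 6.54e-07). Ahcy, which splits S-adenosylhomocysteine, ran from 45.22 ± 5.11 CPM in NZO/HlLtJ to 1341 ± 207 CPM in PWK/PhJ (adjusted p 9.83e-19), with no whole count in any library, so its level is uncertain.

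Genes that carry or process the conjugates were called for 17 of 19 tested (median range 1.32), against 74.2% of all genes in the same test. Acy3, an aminoacylase that acts on mercapturates, was highest in PWK/PhJ with 129.1 ± 21.2 CPM and lowest in WSB/EiJ with 31.46 ± 4.33 CPM (SD, n = 3 each; edgeR adjusted p 3.7e-08). Glutathione-dependent and related peroxidases and redoxins were called for all 18 tested, against 74.2% of all genes. Their median range was 0.95, that of all genes. Among them Glrx, a glutaredoxin, ran from 17.12 ± 3.5 CPM in C57BL/6J to 50.89 ± 4.02 CPM in 129S1/SvImJ (SD, n = 3 each; adjusted p 6.75e-05). Known regulators of the family were called for 14 of 18 (median range 0.79), or 77.8%, close to the 74.2% of all genes. Nr1i3, which encodes CAR, was highest in C57BL/6J with 261.3 ± 50.6 CPM and lowest in PWK/PhJ with 111.5 ± 28.2 CPM (adjusted p 0.000321), with no whole count. Ahr, the aryl hydrocarbon receptor, ran from 13.28 ± 0.789 CPM in WSB/EiJ to 31.75 ± 2.6 CPM in CAST/EiJ (adjusted p 0.000157). Other known Nrf2 targets were called for 10 of 11 (median range 1.14), against 74.2% of all genes. Among them Ugdh, which makes UDP-glucuronate, ran from 38.22 ± 4.07 CPM in A/J to 118.1 ± 13.3 CPM in CAST/EiJ (adjusted p 7.43e-07). The median range was 1.72 for the other glutathione transferase genes and 2.21 for the members, and it was 2.16 for the Kupffer and 2.42 for the endothelial genes.

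The genes with the most similar pattern were sought by Pearson's correlation of log2 CPM over the 27 libraries among 6335 genes averaging at least 10 CPM. The libraries of a strain are not independent, so the values are descriptions. Gstm3 was most like Akr1c12, an aldo-keto reductase gene (r = 0.958), then Wfdc21 (0.862) and Serpina11 (0.83). Gstm2 and Gstm6 had each other among their 3 nearest genes (r = 0.843), and Wfdc21 was also among the 3 nearest of both (0.87 and 0.785). Gstt1 was most like Capn1 (0.965), Ftl1 (0.959) and Iigp1 (0.944). Gsta3 was most like Akr1c6 (0.889), Idh1 (0.879) and Rgn (0.876), and Gstm1 like Sult1d1 (0.86), Cyb5a (0.842) and Nfu1 (0.801). Gsta2 was most like Gbe1 (0.848), Gsta4 like Coq5 (0.844), Gstp1 like 2210016F16Rik (0.862) and Gstm4 like Coq8a (0.731).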

How the data were processed

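Poly(A) RNA libraries (TruSeq RNA v2 kit, not stated to keep strand, per the labels' protocols) were sequenced from hepatocytes of 9 strains, 3 libraries each. The authors deposited estimated counts per Ensembl gene, 1 column per library, of which 19.3% of values in genes with a count were not whole. The builds GRCm38 and mm10 and the tools FastQC 0.11.5 and DESeq2 are named in the submitters' processing notes. The aligner, the counting program and whether a genome of each strain was used are not given in the sources used here. Symbols were taken from GENCODE M21 for 42462 of 43346 genes, and the unnamed genes held 0.0579% of counts.

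Counts were rounded, which changed no library total by more than 0.00026%. All 27 libraries were fitted together in edgeR 4.0.16 (R 4.3.3, limma 3.58.1) by the quasi-likelihood test, with filterByExpr (14482 genes kept) and TMM scaling (factors 0.722 to 1.226). The tests were an F test over the strains and 8 comparisons with C57BL/6J, two-sided, with Benjamini-Hochberg adjustment over all genes tested, and calls under 0.05. The SE of a log2 change was worked back as its absolute value divided by the square root of its F statistic. It is not an error estimated by the fit itself. The code was tested on simulated data. Libraries within a strain differed by far more than counting noise (chi-square per degree of freedom from 24.9 to 137.8), so none was treated as a repeat deposit. Alternatives were DESeq2 1.42.0, other scaling, filters on low counts (none, or a mean of 10), the replicate number as a block, marker covariates, unrounded counts, fits on 6 libraries and each library left out. Fits with no scaling factor, and with a member summed with up to 3 genes sharing most of its 50-base words, were added after the data were seen.

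The 10 members, the gene lists and the tests were chosen with earlier results of these data known. Beyond the members, genes were named from sets fixed by rule. These were, of each list, up to 4 called genes averaging at least 10 CPM with the largest ratio of strain means. For each member they were the 3 genes of highest correlation. Only some of each set are named, not always the widest: Glrx5 (ratio 3.54) and Aox1 (4.92) were wider than Glrx and Ugdh. Gstm5, Gstp2 and Gstp-ps fall outside this rule and were named with their values known, as a neighbour and as copies of members. Single cell type marker genes were also named with their values known. Neighbours in the order of strains were said to be apart where their libraries did not overlap. Precision is limited by 3 libraries per strain and, in PWK/PhJ, by 5 to 8 counts per library for Gstm3 and at most 9 for Gstp3.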

Additional observations from a re-analysis of the deposited data

How the results depend on the processing

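No change of direction occurred among the members' 36 called changes in any alternative fit. All 36 kept their call with DESeq2, with no filter on low counts, with a mean of at least 10 counts and with unrounded counts, 35 with median-of-ratios scaling, 33 with library totals alone, 33 in fits on 6 libraries, 24 with Kupffer and endothelial covariates and 32 with the replicate number as a block. With the copies summed, the changes of Gsta2 in A/J, Gstm6 in WSB/EiJ, Gstm2 in NZO/HlLtJ, PWK/PhJ and WSB/EiJ, and Gstm3 in CAST/EiJ, NZO/HlLtJ and PWK/PhJ did not pass. The sums of Gstm1 and Gstm3 are the same genes, and those of Gstm2, Gstm3 and Gstm6 hold another member, so they do not bear on these members alone. The cause of the losses was not tested. The number of members called in 129S1/SvImJ went from 6 to 0 with the covariates. In A/J it went from 1 to 2 with DESeq2 and with the covariates. In DBA/2J it went from 0 to 1 with no filter, with library totals alone and on 6 libraries. Library totals alone shifted the median log2 change of all genes by up to 0.41 (NZO/HlLtJ), where TMM left it between -0.02 and 0.01. With no filter, 46.4% of all genes were called in the strain effect.

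The replicate numbers did not pair the libraries: over 76 pairs of libraries with the same number, deviations from the strain means correlated with a mean r of 0.01 (lowest -0.293), 22.4% of pairs were over 0.1, and 7 of 27 libraries correlated best with their own number. With the replicate block the A/J count was 0, 9 members were called in the strain effect (Gstm4, adjusted p 0.109), the changes of Gsta2 in A/J, Gstm6 in CAST/EiJ, and Gsta4 and Gstm2 in WSB/EiJ did not pass (adjusted p 0.0734, 0.191, 0.0669 and 0.0505), and the counts were 4 in CAST/EiJ, 4 in WSB/EiJ, 6 in 129S1/SvImJ, 6 in NOD/ShiLtJ, 5 in NZO/HlLtJ, 7 in PWK/PhJ and 0 in DBA/2J.

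Leaving out each of the 27 libraries in turn gave 10 members called in the strain effect in every fit (10 to 10) and 4 class sums (4 to 4). The count ran from 1 to 7 in 129S1/SvImJ, 0 to 2 in A/J, 3 to 5 in CAST/EiJ, 0 to 1 in DBA/2J, 3 to 7 in NOD/ShiLtJ, 4 to 6 in NZO/HlLtJ, 6 to 8 in PWK/PhJ and 3 to 6 in WSB/EiJ. The fits on 6 libraries were not run for the class sums.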
